A study of Mus musculus with 8 samples.

Results

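The neural tube and neural crest genes comprised 32 transcription factor and marker genes chosen by symbol, out of 20701 gene symbols in the count table. They were divided into 5 hindbrain genes, 13 other neural plate genes and 14 neural crest genes. Each gene was represented by the transcript with the highest summed read count. RNA was sequenced from pharyngeal mesoderm and hearts dissected from single C57BL/6 mouse embryos at E8.75, when embryos had 6 somites. The comparison was between 4 Isl1 knockout embryos (Isl1-/-) and 4 wild-type embryos, and the study asked how Isl1, a homeodomain factor found in progenitors of the heart, acts in cardiogenesis. The labels listed the molecule as total RNA for knockout embryo 2 and as polyA RNA for the other 7 embryos. The knockout was carried by the whole embryo, so a change in any tissue of the dissected piece entered these values.

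The neural plate folds into the neural tube, which is divided along its length into forebrain, midbrain, hindbrain and spinal cord by transcription factors such as Otx2, Gbx2 and the En and Pax genes. At its dorsal border, Pax3, Pax7, Zic and Tfap2 factors specify neural crest cells, which then switch on Foxd3, Snai1, Snai2, Sox9 and Sox10 and leave the neural tube. Cranial crest cells enter the pharyngeal arches, and cardiac crest cells from the caudal hindbrain reach the outflow tract of the heart.

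Depth was 23480456 to 26153048 counted reads in the wild-type libraries and 18916449 to 25047024 in the knockout libraries. Isl1 itself (chr13:117088478-117099896 in mm9, minus strand) measured 9.72, 9.76, 26.9 and 23.3 CPM (counts per 1000000 reads) in wild-types 1 to 4, and 2.32, 2.16, 1.78 and 2.40 CPM in knockouts 1 to 4. The genotypes did not overlap, and the log2 fold change was -3.00 ± 0.36 (SE, edgeR adjusted p = 0.0041). Heart muscle genes were abundant in every library. Their summed level was 3067 to 4599 CPM in wild-type and 1657 to 2498 CPM in knockout embryos. In the knockouts 12 of 12 were lower, beside 6868 of the 14075 genes tested. An edgeR adjusted p of 0.05 was passed by 9 of the 12, beside 0.973% of all genes in either direction. In bulk tissue, fewer cells of a type and less RNA per cell cannot be told apart.

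The sequence upstream of the start site is shown for 3 members. Egr2 had the lowest log2 fold change of all members, Snai1 is a crest regulator whose knockout values were widely spread, and Tfap2a encodes an AP-2 factor that marks crest and surface ectoderm. The stretches hold the 250 bases before the RefSeq transcript start in GRCm38.p6, 5′ to 3′, at chr10:67535249-67535498 (plus strand), chr2:167537945-167538194 (plus strand) and chr13:40734921-40735170 (minus strand). Of several starts listed for Egr2 and Tfap2a, the entry that came ahead of the others was taken. Capitals mark matches, on either strand, to GCCNNNGGC (the AP-2 motif), CAGGTG (an E-box bound by Snail proteins) and TAATTA (a homeodomain core).
Egr2: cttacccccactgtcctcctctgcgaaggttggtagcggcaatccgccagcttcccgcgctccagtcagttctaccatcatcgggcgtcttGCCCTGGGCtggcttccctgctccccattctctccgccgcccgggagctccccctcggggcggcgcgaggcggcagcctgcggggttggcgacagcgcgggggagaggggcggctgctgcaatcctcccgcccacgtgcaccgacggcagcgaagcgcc
Snai1: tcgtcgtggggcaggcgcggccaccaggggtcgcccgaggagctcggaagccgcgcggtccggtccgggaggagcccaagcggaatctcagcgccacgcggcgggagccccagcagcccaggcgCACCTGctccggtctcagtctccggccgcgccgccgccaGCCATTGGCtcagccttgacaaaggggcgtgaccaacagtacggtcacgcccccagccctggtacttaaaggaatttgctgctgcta
Tfap2a: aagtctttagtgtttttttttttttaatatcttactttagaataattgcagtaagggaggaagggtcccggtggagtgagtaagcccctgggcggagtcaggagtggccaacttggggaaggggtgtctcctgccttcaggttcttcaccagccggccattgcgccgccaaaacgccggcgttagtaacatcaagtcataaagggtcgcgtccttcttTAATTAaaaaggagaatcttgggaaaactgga
None of these matches overlapped another. Upstream sequence was matched for 22 of the 32 members. The AP-2 motif was present in 1 of 4 hindbrain, 3 of 11 neural plate and 1 of 7 crest promoters, against 13.6% of 27025 mouse promoters of the same length. The E-box was found in 0 of 4, 0 of 11 and 1 of 7 promoters, against 17.1% of all promoters. TAATTA was found in 0 of 4, 2 of 11 and 1 of 7 promoters, against 4.9% of all. The members' promoters had a median GC content of 65.2%, and all promoters one of 52%.

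All 32 members were detected in every embryo and passed the filter on low counts. The fewest reads were 6, for Neurog1 in wild-type embryo 3, and the most were 6099, for Nes. Levels were compared per length in RPKM (reads scaled to the kilobase of transcript and to 1000000 reads summed over all transcript entries). The neural plate genes held the highest levels. In wild-type embryos, Sox2, a pluripotency and neural progenitor factor, had 27.5 ± 3.4 RPKM (SD, n = 4). It was followed by Otx2, the forebrain and midbrain homeobox gene, with 24.5 ± 4.9 RPKM and by Nes, the intermediate filament of neural progenitors, with 19.6 ± 2.7 RPKM. The means of these neighbours lay within the sum of their SDs. Zic2 had 13.3 ± 0.77 RPKM and Pax6 11.2 ± 1.8 RPKM. Among crest genes, Ets1, which endothelial cells also express, was at 10.4 ± 1.3 RPKM, Sox10 at 6.99 ± 1.36 RPKM and Sox9 at 6.07 ± 1.21 RPKM. The hindbrain genes lay lower, between 2.37 ± 0.82 RPKM for Pax2 and 4.98 ± 2.04 RPKM for Gbx2. At the bottom were the proneural genes Neurog2 (0.588 ± 0.192 RPKM) and Neurog1 (0.535 ± 0.437 RPKM), the motor neuron progenitor gene Olig2 (0.58 ± 0.24 RPKM), and Sox8 (0.243 ± 0.095 RPKM). RNA of neural plate, hindbrain and crest genes was therefore measurable in tissue labelled as pharyngeal mesoderm and hearts.

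**Figure D1:**
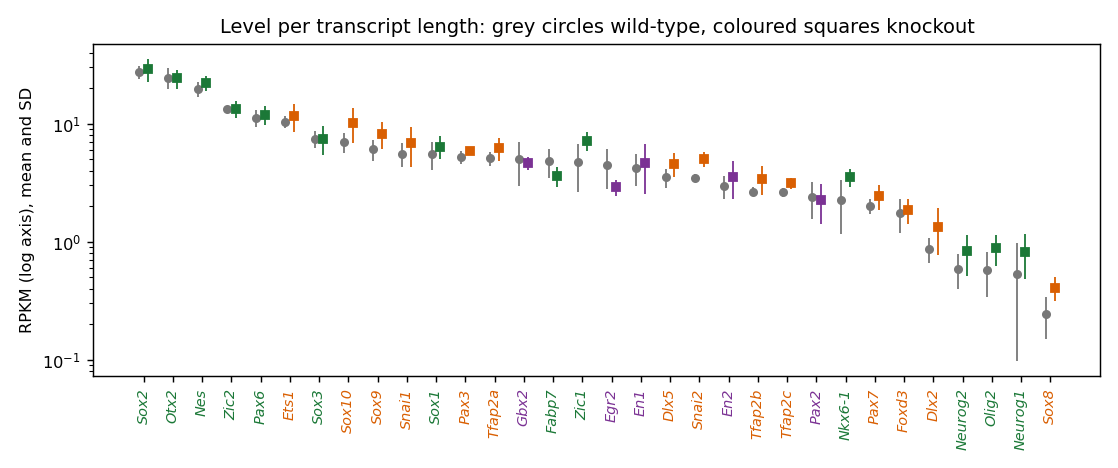
Level of each member in RPKM on a log axis, as mean and SD over 4 embryos, for wild-type (grey circles) and knockout (coloured squares); purple names are hindbrain, green other neural plate and orange crest genes. The 32 genes are ordered by their wild-type mean, from Sox2 at 27.5 RPKM to Sox8 at 0.243 RPKM.

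No member passed an edgeR adjusted p of 0.05 for knockout against wild-type, where 0.973% of the 14075 genes tested did. At an unadjusted p under 0.05 there were 2 of the 32, Snai2 (higher) and Egr2 (lower), beside 17.4% of all genes. With the DESeq2 Wald test, 1 member passed an adjusted p of 0.05, again Snai2, beside 5.02% of all genes, and limma on RPKM values called none. The thresholds used in the study (1.5-fold with an unadjusted p under 0.05) were met by 1 member, Egr2, and by 3.93% of all genes. All 4 knockout values lay above or below all 4 wild-type values for 1 member, Snai2, beside 10.3% of all genes. By each of these rules the share of members called was no higher than that of all genes.

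In direction, 25 of 32 members (78.1%) had a log2 fold change above 0 in the knockouts, where 51.2% of all genes did. Their median log2 fold change was 0.20, beside 0.006 for all genes tested. The groups contributed unequally: 2 of 5 hindbrain genes, 9 of 13 neural plate genes and 14 of 14 crest genes were above 0. Group medians were -0.13 for hindbrain, 0.11 for neural plate and 0.27 for crest genes. With the Y-linked covariate they were -0.024, 0.011 and 0.33, and the neural plate median was 0.021 without knockout embryo 1. The spread between embryos of one genotype was wide for these genes, with a median SD of 0.37 on the log2 scale, against 0.17 for all genes tested. It ran from 0.13 for Pax3 to 1.04 for Neurog1. The median level was 18.7 CPM for the members and 27.7 CPM for all genes tested, so this contrast was not matched for level.

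**Figure D2:**
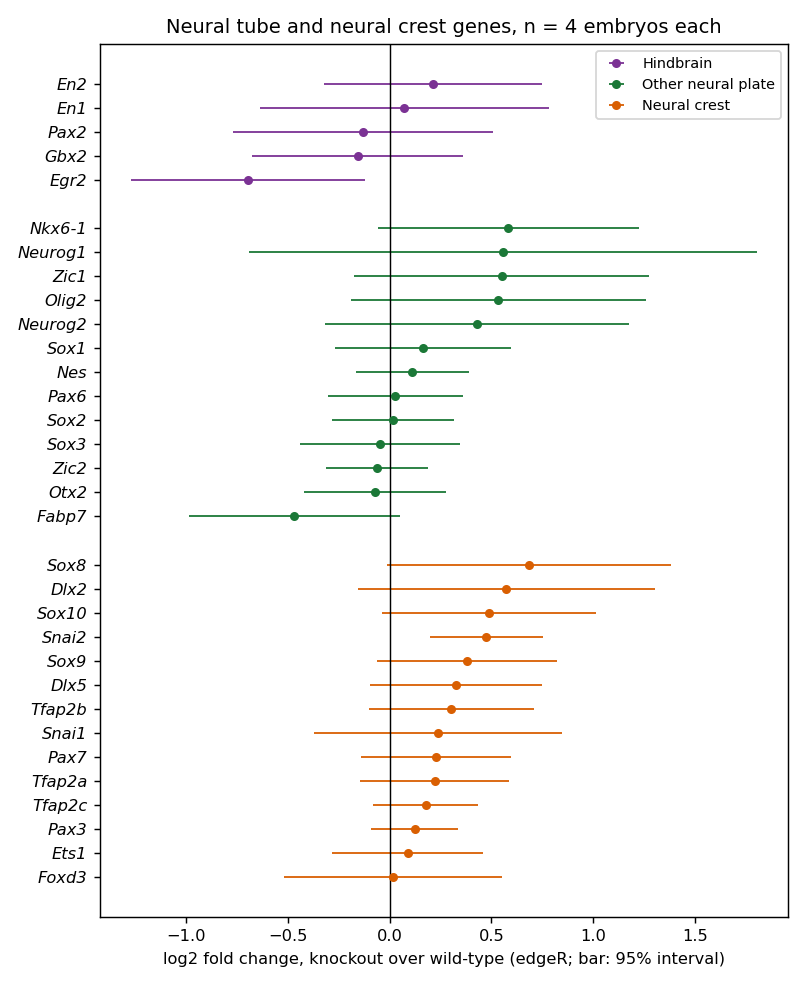
Log2 fold change of each member, knockout over wild-type, with its 95% interval from edgeR (n = 4 embryos per genotype). All 14 crest genes lie to the right of 0, but the interval leaves out 0 for 2 members alone, Snai2 (0.20 to 0.76) and Egr2 (-1.27 to -0.12).

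Hindbrain genes had the highest median SD between embryos of one genotype, 0.448 against 0.332 for neural plate and 0.312 for crest genes. They showed no shared direction. Egr2 (Krox20; chr10:66998223-67004936 in mm9), which specifies hindbrain rhombomeres and is also expressed in early crest leaving them, was the member with the lowest log2 fold change. It measured 32.4, 28.02, 17.7 and 13.4 CPM in wild-types 1 to 4 and 13.5, 17.49, 13.7 and 11.8 CPM in knockouts 1 to 4. Wild-type embryos 1 and 2 stood well above all knockouts, embryo 3 just above them, and embryo 4 within the knockout range. The log2 fold change was -0.69 ± 0.26 (SE), a fold of 0.618, with an edgeR adjusted p of 0.214 and an exact two-sided permutation p of 0.143. With the level of Y-linked genes as a covariate, it was -0.31 (edgeR adjusted p = 0.567).

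Gbx2 (chr1:91824537-91829865), which sets the anterior limit of the hindbrain, had 14.8, 13.9, 29.2 and 14.7 CPM in wild-type and 19.0, 15.01, 16.6 and 14.5 CPM in knockout embryos 1 to 4. Wild-type embryo 3 stood alone above the 7 others, and the log2 fold change was -0.16 ± 0.23. En1 and En2, which pattern the midbrain-hindbrain junction, both peaked in knockout embryo 1. En1 measured 21.1, 12.8, 25.0 and 15.3 CPM in wild-type and 29.4, 24.0, 13.9 and 10.6 CPM in knockout embryos, with a log2 fold change of 0.07 ± 0.32. En2 measured 20.6, 15.2, 14.1 and 21.7 CPM in wild-type and 30.0, 21.7, 18.2 and 13.1 CPM in knockout embryos, with 0.21 ± 0.24. Both genes were thus higher in knockout embryo 1 and lower in knockout embryo 4 than in any wild-type embryo. Pax2, a gene of the same junction and of the otic placode and kidney, had 10.9, 8.87, 18.4 and 11.02 CPM in wild-type and 16.1, 12.6, 6.80 and 9.25 CPM in knockout embryos, with -0.13 ± 0.29.

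Among the knockouts, embryo 1 was the highest for 4 of 5 hindbrain genes and embryo 4 the lowest for 4 of 5. Over all genes tested, those shares were 21.4% and 22.8%. Both embryos were singled out after the values were seen, so these counts are a description. The median of the hindbrain genes turned from -0.13 to 0.13 without wild-type embryo 3 and to 0.04 without knockout embryo 3, so its sign rested on single embryos. Beyond the members, 24 of 25 further hindbrain genes passed the filter. Of these, 21 had a log2 fold change above 0, beside 51.2% of all genes, and none passed an edgeR adjusted p of 0.05. At an unadjusted p under 0.05 there were 2, beside 17.4% of all genes, and DESeq2 called 0, beside 5.02%. Their median was 0.18. Hoxb3, Hoxb2 and Hoxb1, which give identity to rhombomeres and are also expressed in pharyngeal mesoderm, had the smallest p-values, with log2 fold changes of 0.43 ± 0.16, 0.28 ± 0.10 and 0.29 ± 0.13 (edgeR adjusted p = 0.209, 0.211 and 0.295). Hoxb3 measured 23.7, 39.2, 31.3 and 29.2 CPM in wild-type and 41.3, 37.0, 37.0 and 50.8 CPM in knockout embryos, so that wild-type embryo 2 reached into the knockout range.

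The neural plate genes with the highest levels had log2 fold changes near 0. Sox2 (chr3:34548927-34551383) measured 105, 107, 127 and 127 CPM in wild-type and 153, 109, 95.4 and 115 CPM in knockout embryos 1 to 4. The knockouts spanned the wild-type range on both sides, and the log2 fold change was 0.02 with a 95% interval of -0.28 to 0.32. Otx2 (chr14:49277354-49287319) measured 114, 82.1, 70.7 and 94.8 CPM in wild-type and 108, 74.1, 78.0 and 83.5 CPM in knockout embryos, with a log2 fold change of -0.07 (interval -0.42 to 0.28). Pax6, of forebrain, eye and ventral neural tube, was at 71.6 ± 11.5 CPM in wild-type and 72.9 ± 13.2 CPM in knockout embryos. Zic2 was at 68.0 ± 4.9 and 65.1 ± 10.4 CPM, and Nes at 206 ± 29 and 223 ± 31 CPM. For Sox2, Otx2, Pax6, Zic2 and Nes, the 95% intervals left out changes beyond 0.42 on the log2 scale in either direction. Sox3, a partner of Sox2 in neural progenitors, had 26.4 ± 3.9 CPM in wild-type and 25.5 ± 6.7 CPM in knockout embryos, and Sox1, a marker of committed neural plate, 38.1 ± 9.7 and 42.7 ± 9.2 CPM. Both had their highest knockout value in embryo 1.

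The larger log2 fold changes of this group belonged to patterning and proneural genes at lower levels, and none passed the test. Nkx6-1 (chr5:102087158-102094245), of ventral neural progenitors, measured 6.51, 4.12, 11.6 and 5.40 CPM in wild-type and 11.4, 9.66, 12.2 and 8.22 CPM in knockout embryos. All knockouts exceeded wild-type embryos 1, 2 and 4, and wild-type embryo 3 lay among the knockouts. Its log2 fold change was 0.58 ± 0.29 (edgeR adjusted p = 0.329) and became 0.95 without wild-type embryo 3 (adjusted p = 0.038). Zic1 (chr9:91252896-91260648), of the dorsal neural tube and neural plate border, measured 31.0, 31.9, 9.78 and 35.5 CPM in wild-type and 42.1, 29.8, 43.1 and 43.8 CPM in knockout embryos. Here too wild-type embryo 3 stood apart from its group, this time at the low end. The log2 fold change was 0.55 ± 0.33 (edgeR adjusted p = 0.415) and fell to 0.27 without wild-type embryo 3.

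Olig2 was at 2.43 ± 1.02 CPM in wild-type and 3.54 ± 1.02 CPM in knockout embryos, and Neurog2, a proneural factor, at 2.23 ± 0.72 and 3.02 ± 1.13 CPM. Neurog1, which drives sensory neurons of the cranial ganglia, measured 1.17, 1.51, 0.253 and 3.15 CPM in wild-type and 3.36, 1.41, 1.67 and 2.54 CPM in knockout embryos. It had 6 to 87 reads per library and the widest spread between embryos of any member, and its log2 fold change of 0.56 had an interval of -0.69 to 1.81. Fabp7, a fatty acid binding protein of radial glia, was the neural plate member with the lowest log2 fold change, at -0.47 ± 0.23 (edgeR adjusted p = 0.332). It measured 6.25 ± 1.74 CPM in wild-type and 4.51 ± 0.85 CPM in knockout embryos. Wild-type embryo 3 was the lowest wild-type for 7 of 13 neural plate genes and the highest for 5, against 33.9% and 35.2% of all genes tested. This embryo too was singled out after the values were seen.

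Of 36 further neural tube genes, 34 passed the filter, 19 had a log2 fold change above 0 and none passed an edgeR adjusted p of 0.05. Of all genes tested, 51.2% were above 0. At an unadjusted p under 0.05, 4 were higher and 2 lower, beside 17.4% of all genes, and the median of the list was 0.06. DESeq2 called 2 genes of the list, Hes5 and Hesx1, beside 5.02% of all genes. Hes5, a Notch-induced repressor that keeps neural progenitors undifferentiated, measured 2.54, 2.88, 3.46 and 4.37 CPM in wild-type and 11.6, 6.09, 6.27 and 6.07 CPM in knockout embryos. All knockouts exceeded all wild-types, and 10.3% of all genes tested separated the genotypes in either direction. The log2 fold change of Hes5 was 1.18 ± 0.26 (edgeR adjusted p = 0.068, DESeq2 adjusted p = 0.00156). Its exact two-sided permutation p was 0.0286, the smallest that 4 against 4 embryos allow. Hesx1, a homeobox gene of the anterior neural plate and of anterior endoderm, measured 8.64, 6.30, 10.96 and 6.42 CPM in wild-type and 5.37, 4.85, 3.87 and 3.04 CPM in knockout embryos. Its genotypes did not overlap either, with the knockouts lower by a log2 fold change of -0.91 ± 0.23 (edgeR adjusted p = 0.095, DESeq2 adjusted p = 0.0107). Msx3, of the dorsal neural tube, had a log2 fold change of 0.40 ± 0.14 (edgeR adjusted p = 0.19).

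The 14 crest genes had log2 fold changes from 0.02 to 0.69, every one of them above 0. Snai2 (Slug; chr16:14705945-14709488), a zinc-finger repressor of the epithelial to mesenchymal transition, was the member whose genotypes separated. It measured 11.5, 11.4, 12.8 and 12.2 CPM in wild-type and 14.4, 19.3, 14.4 and 18.7 CPM in knockout embryos 1 to 4. The wild-types lay close together and all knockouts were above them. The log2 fold change was 0.48 ± 0.12 (SE), or 1.39-fold, with an edgeR adjusted p of 0.103, a DESeq2 adjusted p of 0.0179 and an exact two-sided permutation p of 0.0286. Snai2 is also transcribed in other mesenchyme, and its values do not tell crest from mesoderm.

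Its relative Snai1 (chr2:167363695-167368314) measured 16.02, 12.6, 20.4 and 12.9 CPM in wild-type and 16.1, 24.5, 9.57 and 22.9 CPM in knockout embryos. Here the knockouts lay on both sides of the wild-type range, and the log2 fold change was 0.24 ± 0.27. The SoxE genes, which maintain migrating crest, had larger log2 fold changes. Sox9 (chr11:112643538-112649074) measured 34.2, 46.0, 53.9 and 39.1 CPM in wild-type and 56.4, 63.5, 36.2 and 69.1 CPM in knockout embryos, with 0.38 ± 0.20 (edgeR adjusted p = 0.36). Sox10 (chr15:78985343-78994920) measured 40.6, 26.1, 34.9 and 28.7 CPM in wild-type and 40.8, 53.5, 26.8 and 61.5 CPM in knockout embryos, with 0.49 ± 0.24 (edgeR adjusted p = 0.325). For Sox9 and Sox10 alike, knockout embryos 1, 2 and 4 exceeded all wild-types and knockout embryo 3 did not. Sox8 had the highest log2 fold change of all members, 0.69 ± 0.31, at 1.25 ± 0.48 CPM in wild-type and 2.02 ± 0.47 CPM in knockout embryos and 15 to 55 reads per library (edgeR adjusted p = 0.296).

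Pax3, Pax7 and the Tfap2 genes, which also act at the neural plate border, had log2 fold changes of 0.12 to 0.30. Pax3 (chr1:78097842-78193709) measured 32.7, 38.8, 29.3 and 37.0 CPM in wild-type and 39.0, 36.0, 37.0 and 38.1 CPM in knockout embryos. It was the steadiest of the members, with knockout values between 36 and 39 CPM and a log2 fold change of 0.12 (interval -0.09 to 0.34). Pax7 was at 14.8 ± 1.9 CPM in wild-type and 17.3 ± 4.1 CPM in knockout embryos. Tfap2a, whose upstream sequence is printed above, measured 26.8, 33.5, 34.7 and 26.5 CPM in wild-type and 35.1, 40.4, 24.7 and 41.3 CPM in knockout embryos, with 0.22 ± 0.16 (edgeR adjusted p = 0.521). Its paralogues Tfap2b and Tfap2c had log2 fold changes of 0.30 ± 0.18 and 0.18 ± 0.12. Tfap2a and Tfap2b had their lowest knockout value in embryo 3, below every wild-type embryo.

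Foxd3 (chr4:99322990-99325362), required to keep the crest progenitor pool, had the smallest difference of the crest genes. It measured 6.22, 6.34, 10.5 and 5.51 CPM in wild-type and 6.15, 9.24, 5.38 and 8.13 CPM in knockout embryos, with 0.02 ± 0.24. Ets1, which cardiac crest and endothelium express, was at 90.5 ± 10.6 CPM in wild-type and 96.2 ± 25.1 CPM in knockout embryos. Dlx2, a homeobox gene of crest in the pharyngeal arches, measured 4.46, 3.77, 2.40 and 4.07 CPM in wild-type and 5.53, 5.97, 2.40 and 7.98 CPM in knockout embryos, with 0.57 ± 0.33 (edgeR adjusted p = 0.399). Dlx5, which patterns the lower jaw and also marks placodal ectoderm, was at 8.46 ± 1.52 and 10.6 ± 2.4 CPM, with 0.33 ± 0.19 (edgeR adjusted p = 0.407). In both Dlx genes knockout embryo 3 lay within the wild-type range.

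**Figure D3:**
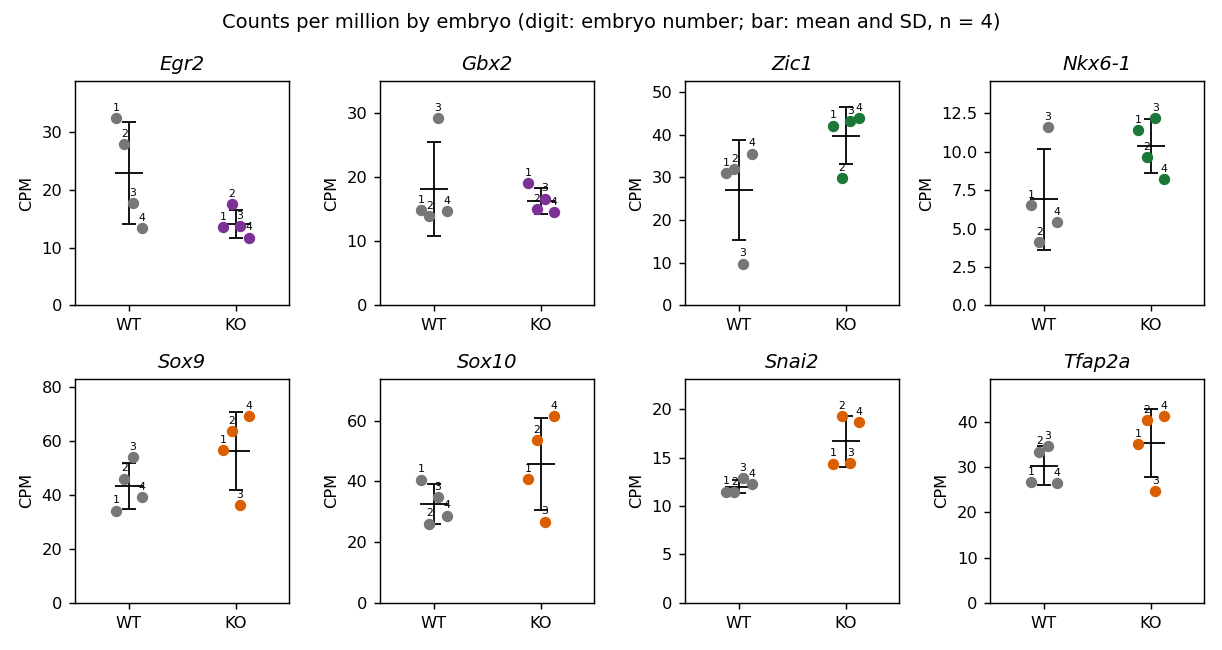
CPM in each embryo (points, with the embryo number) for 8 members, with mean and SD over 4 embryos per genotype; grey points are wild-type and coloured points knockout, and each axis starts at 0. Snai2 separates the genotypes, wild-type embryo 3 stands apart in Gbx2 and Zic1, and knockout embryo 3 lies below the other knockouts in Sox9, Sox10 and Tfap2a.

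Many crest genes shared one order among the knockout embryos. Knockout embryo 3 was the lowest knockout for 10 of 14 crest genes and the highest for none, and knockout embryo 4 was the highest for 7 and the lowest for none. For all genes tested, knockout embryo 3 was the lowest for 25.5% and knockout embryo 4 the highest for 24.4%. These embryos were singled out after the values were seen, so the counts are a description. A mean of log2 CPM centred on each gene was taken as the level of a group in an embryo. For crest genes it was -0.13, -0.17, -0.15 and -0.13 in wild-type embryos 1 to 4 (SD 0.019) and 0.14, 0.34, -0.31 and 0.40 in knockout embryos 1 to 4 (SD 0.32). The wild-type means were nearly level, 3 knockouts lay above them and knockout embryo 3 below. Single genes were less level, since wild-type embryo 3 was the highest wild-type for 7 and the lowest for 6 of the 14 crest genes. Without knockout embryo 3, the median log2 fold change of the crest genes was 0.45 and that of all genes 0.002.

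The other groups followed a different order of embryos. Hindbrain genes had group levels of 0.35, 0.13, -0.29 and -0.46 in knockout embryos 1 to 4 and 0.21, -0.14, 0.32 and -0.12 in wild-type embryos. Neural plate genes had 0.34, -0.12, 0.17 and 0.07 in knockout and -0.11, -0.05, -0.40 and 0.12 in wild-type embryos. Knockout embryo 4 was thus the highest knockout for crest and the lowest for hindbrain genes, while knockout embryo 1 was the highest for hindbrain and neural plate genes.

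**Figure D4:**
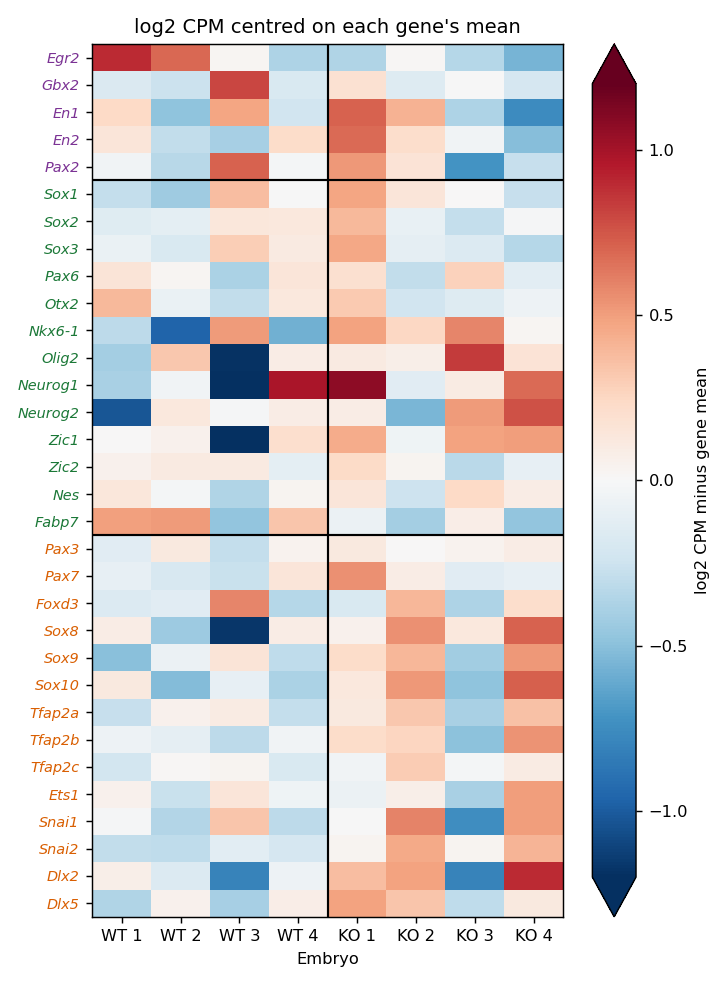
Log2 CPM of each member in each embryo minus the mean of that gene over the 8 embryos (red above, blue below; colours saturate at the ends of the bar), with hindbrain genes at the top, other neural plate genes in the middle and crest genes at the bottom. Knockout embryo 3 is the lowest knockout for 10 of 14 crest genes, and wild-type embryo 3 is the lowest of the 8 embryos for Pax6, Otx2, Olig2, Neurog1, Zic1, Nes, Fabp7, Pax3, Pax7, Sox8, Dlx2 and Dlx5.

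**Figure D5:**
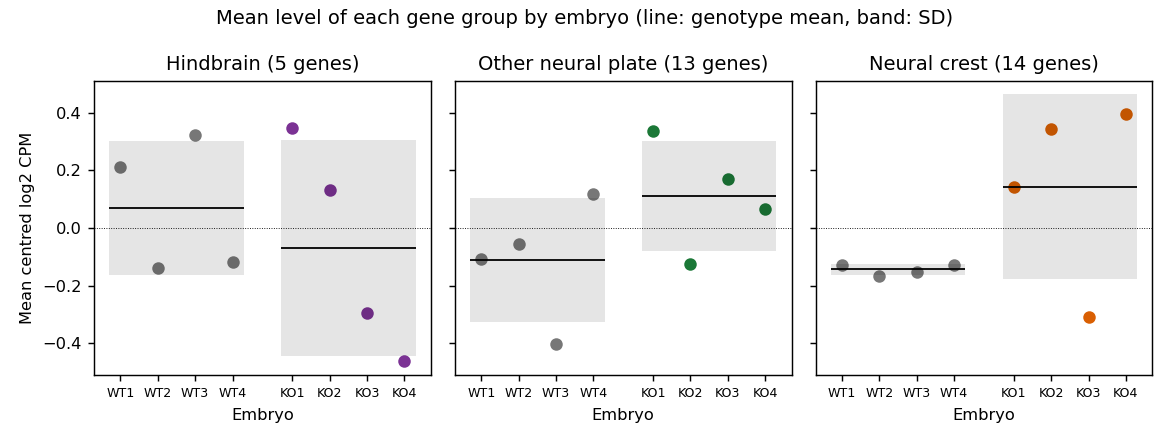
Mean centred log2 CPM of each gene group in each embryo (points), with the genotype mean (line) and SD (band), for wild-type (WT, grey) and knockout (KO, coloured). Wild-type crest levels lie between -0.17 and -0.13, and the knockouts range from -0.31 to 0.40.

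Of 28 further crest and crest mesenchyme genes, all passed the filter and none passed an edgeR adjusted p of 0.05. A log2 fold change above 0 was found for 20, beside 51.2% of all genes. At an unadjusted p under 0.05, 4 were higher and 3 lower, beside 17.4% of all genes. DESeq2 called 4, beside 5.02% of all genes, and the median of the list was 0.08. Mitf, the regulator of melanocytes, which heart muscle and eye also express, measured 7.34, 7.98, 5.82 and 6.995 CPM in wild-type and 4.41, 3.11, 4.34 and 4.31 CPM in knockout embryos. Its genotypes did not overlap, as for 10.3% of all genes tested. The log2 fold change was -0.80 ± 0.16 (edgeR adjusted p = 0.055, DESeq2 adjusted p = 0.00163). Rhob, a small GTPase of delaminating crest that many tissues express, measured 108, 139, 62.6 and 53.7 CPM in wild-type and 49.7, 55.8, 39.7 and 45.5 CPM in knockout embryos. Its log2 fold change was -0.93 ± 0.27 (edgeR adjusted p = 0.135, DESeq2 adjusted p = 0.080). Mitf and Rhob thus went against the direction of most of the list.

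Markers of other tissues in the dissected piece also differed between embryos. The heart muscle genes had group levels of 0.70, 0.68, -0.006 and 0.63 in wild-type and -0.38, -0.79, -0.27 and -0.56 in knockout embryos 1 to 4. Knockout embryo 3, with the lowest crest level, had the highest heart muscle level of the knockouts. Knockout embryos 2 and 4, with the highest crest levels, had the lowest. In wild-type embryos the heart muscle level ran from -0.006 to 0.70, while the crest level stayed between -0.17 and -0.13. The order among the knockouts was picked out after the values were seen, and its cause was not tested. Placode and surface ectoderm genes, which share Tfap2 and Dlx factors with crest, had levels of -0.35, 0.06, 0.006 and -0.16 in wild-type and 0.07, 0.16, -0.04 and 0.25 in knockout embryos. Of these, 13 of 17 were above 0, beside 51.2% of all genes, and none passed an edgeR adjusted p of 0.05. At an unadjusted p under 0.05 there were 3, beside 17.4%, and DESeq2 called 2, beside 5.02%. The summed level was 673 to 921 CPM in wild-type and 719 to 938 CPM in knockout embryos. Krt18, Krt8, Cdh1 and Epcam held much of that sum, with wild-type means of 202.5, 152, 111 and 66.1 CPM. Epcam was also listed as foregut endoderm, so the sum does not tell ectoderm from endoderm.

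Endothelial genes, relevant to Ets1, were below 0 for 7 of 8, none past the test (1 at an unadjusted p under 0.05, 0 by DESeq2), at a summed 366 to 469 CPM in wild-type and 295 to 419 CPM in knockout embryos. Of the 13 paraxial mesoderm genes, which bear on Pax3 and Pax7, 10 passed the filter, with a summed 49.2 to 111 CPM and 67.1 to 120 CPM and a median log2 fold change of 0.07. Of the 8 caudal axis genes, 7 passed, with a summed 34.5 to 55.0 CPM and 46.1 to 55.6 CPM and a median of 0.32. Genes listed as foregut endoderm had a summed 310 to 949 CPM in wild-type and 277 to 1459 CPM in knockout embryos. Their median log2 fold change was -0.02. Afp, at 47.8 to 390 CPM in wild-type and 37.1 to 840 CPM in knockout embryos, held much of that range. Ttr lay at 41.7 to 270 CPM and 36.5 to 327 CPM, and Foxa2 at 10.6 to 21.1 CPM and 12.5 to 16.9 CPM. Erythroid genes were above 0 for 6 of 6 with a median of 0.49 and a summed 360 to 2305 CPM in wild-type and 1223 to 3039 CPM in knockout embryos. In the paraxial, caudal, endodermal and erythroid lists no gene passed an edgeR adjusted p of 0.05. At an unadjusted p under 0.05 there were 2 endoderm genes, and DESeq2 called 2. Over all genes tested, 17.4% had an unadjusted p under 0.05, DESeq2 called 5.02%, and 51.2% were above 0. The part of these tissues in the neural and crest values was not tested.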

How the data were processed

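RNA was sequenced from single embryos, 4 per genotype, grouped and numbered by the sample titles. The authors used 100 ng of RNA, mapped reads to mm9 with STAR (introns of 20 to 500000 bases) and counted exonic reads of both strands with HOMER; versions are not given in the sources used here. Reads of overlapping antisense genes therefore could not be told apart. The deposited count values were raw reads per transcript, and the RPKM values came from the authors' edgeR step on these counts and the deposited transcript lengths in bases. The authors' own columns of a DESeq2 comparison (mean, log2 fold change, standard error, statistic and p-values) were not used.

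One transcript per symbol was kept, out of 31507 entries. CPM were TMM-scaled counts per 1000000 reads. Counts were fitted in edgeR 4.0.16 (R 4.3.3) with filterByExpr and a quasi-likelihood test on genotype over 14075 genes, two-sided, with Benjamini-Hochberg adjustment. DESeq2 1.42.0 and limma 3.58.1 on log2(RPKM + 1) were alternatives. Permutation tests were exact over 70 splits on log2 CPM. Log2 fold changes are given with SE or a 95% interval. The fit was tested on simulated counts. Intervals cover the spread between embryos, and reads carried no molecular identifiers. No libraries were duplicates.

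The members and gene lists were chosen with earlier results of these data known. Named were all 32 members, Isl1 and, of each further list, the 3 genes with the smallest p, except an item that is not reported here. Values per embryo were planned for Egr2, Gbx2, Otx2, Sox2, Sox10, Foxd3, Tfap2a and Pax3. They were also planned for members with an unadjusted edgeR p under 0.05, a rule by which these data brought in Snai2. For other genes they were added after the values were seen. Coordinates came from GENCODE vM1 on NCBIM37 (mm9), where 28 of 32 members were found by symbol, and promoters from RefSeq (GRCm38.p6). Alternatives were other scalings, no filter, the longest transcript, a covariate of Y-linked genes, the replicate number as a block, and each embryo left out. Tables and plots were made with Python 3.11.15, pandas 2.3.3, numpy 2.4.6 and matplotlib 3.10.9.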

Additional observations from a re-analysis of the deposited data

Results flagged for a closer look

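Of 64 groups of 4 embryos tested (each member in each genotype), 5 held an embryo far from the other 3 by Dixon's criterion, and chance flags about 1 in 20. Gbx2 was at 29.2 CPM in wild-type embryo 3, against 13.9 to 14.8 CPM in the other wild-types. Foxd3 was also highest in wild-type embryo 3, at 10.5 CPM against 5.51 to 6.34 CPM. Neurog2 was at 1.17 CPM in wild-type embryo 1, below the 2.44 to 2.71 CPM of the others. In the knockouts, Zic1 was at 29.8 CPM in embryo 2, against 42.1 to 43.8 CPM, and Olig2 at 5.07 CPM in embryo 3, against 2.94 to 3.13 CPM.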

How the results depend on the processing

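No member passed an adjusted p of 0.05 in edgeR, and this held under all alternatives but these. The DESeq2 Wald test called 1 member (Snai2), and leaving out 1 embryo gave 0 to 1 (Nkx6-1 without wild-type embryo 3). The median of the crest genes ranged from 0.22 (without knockout embryo 4) to 0.45 (without knockout embryo 3) when 1 embryo was left out. All 14 crest genes were above 0 in each alternative that kept all 8 embryos, and 12 to 14 of them with 1 embryo left out. With the Y-linked covariate, Sox2 (-0.061), Pax6 (-0.134), Nes (-0.027) and Zic2 (0.011) changed sign, and Egr2 moved to -0.31 and Zic1 to 0.28. Without knockout embryo 4, Sox10 was at 0.31, Dlx2 at 0.34 and Tfap2b at 0.16, and without knockout embryo 3 Tfap2b was at 0.47. Olig2 was at 0.31 without wild-type embryo 3 and at 0.32 without knockout embryo 3. On log2(RPKM + 1), which understates changes at low levels, Sox8 was at 0.18, Olig2 at 0.25, Dlx2 at 0.30, Mitf at -0.29, Fabp7 at -0.31 and Egr2 at -0.45. With 1 embryo left out, the log2 fold change changed sign for 11 members near 0, with ranges of -0.20 to 0.27 (En1), -0.02 to 0.38 (En2), -0.26 to 0.17 (Gbx2), -0.36 to 0.13 (Pax2), -0.13 to 0.11 (Sox2), -0.25 to 0.05 (Sox3), -0.08 to 0.13 (Pax6), -0.20 to 0.06 (Otx2), -0.159 to 0.025 (Zic2), -0.092 to 0.21 (Ets1) and -0.12 to 0.26 (Foxd3). The causes were not tested. Other scalings moved the median of all genes to at most 0.043.

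The number of all genes past the threshold was 137 in edgeR and 712 in DESeq2. It was 490 without wild-type embryo 3, and 70 to 138 when any other embryo was left out. With the replicate number as a block it was 76, with 0 members, and group medians of -0.09 (hindbrain), 0.11 (neural plate) and 0.24 (crest). Correlations of same-numbered embryos were 0.109, 0.212, 0.0863 and 0.507. Wild-type embryo 4 correlated best with knockout embryo 1 (0.552), so the numbers were not taken as pairs. Counts were lowest for Sox8, Neurog1, Neurog2 and Olig2, at 6 to 97 reads per library.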
